A study of Mus musculus with 6 samples.

Results

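The 9 genes described here, Ptprc, Kit, Flt3, Il7r, Cd24a, Cd93, Spn, Cd34 and Bst1, encode surface proteins by which blood progenitors and developing B cells are staged. They were taken by name from an abundance table of 37315 genes and an allele table of 19402 genes, and all 9 are in both. RNA-seq was made from 3 lines of immortalised mouse B cells, Abl.2 (female), Abl.3 (male) and Abl.4 (female), each from an F1 animal of a cross between the strains 129S1/SvImJ and CAST/EiJ. The file headers call the lines Abelson clones, so each line stands for a single clone. All 3 lines were untreated controls kept in growth medium with 1% DMSO, a solvent, and their live cells were collected on a density gradient at day 2. Each line has 2 libraries, which the labels describe as replicates of library preparation. The p-values below therefore cover the spread of library preparation and counting within a clone, and a difference between lines is a difference between 3 clones.

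B cells develop in the bone marrow through stages that are told apart by surface proteins. Multipotent and lymphoid progenitors carry the stem cell factor receptor Kit, the cytokine receptor Flt3 and the sialomucin CD34. Interleukin 7 acts through the receptor chain encoded by Il7r and is the main growth signal of mouse pro-B cells. CD43 (Spn), CD93, heat-stable antigen (Cd24a) and BP-3 (Bst1) mark steps within the pro-B and pre-B stages, and CD45 (Ptprc) is carried by nearly all white blood cells, in B cells as the long isoform B220. Abelson virus carries an activated Abl kinase, and the lines made with it usually resemble cells near the pro-B to pre-B step.

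The cell type named on the labels was checked first. All 9 B-lineage markers examined, among them Pax5 and Igll1, were above 1 TPM (a transcript level scaled to gene length and to a total of 1000000 per library), and together they summed to 12570 to 13960 TPM per library. None of 6 T-cell markers, 4 erythroid, 3 megakaryocyte or 4 stromal markers had a mean of 1 TPM over all libraries. Of 7 myeloid markers 3 did, led by Lyz2 at up to 193 TPM, with Cd14 and Elane at 0. The myeloid list summed to 161 to 196 TPM in Abl.2, 81.0 to 103 TPM in Abl.3 and 80.5 to 92.9 TPM in Abl.4. The NK list summed to 14.5 to 16.5 TPM in Abl.2, 0.77 to 1.05 TPM in Abl.3 and 5.77 to 6.83 TPM in Abl.4, nearly all of it Klrb1c, with Ncr1 at 0. The megakaryocyte list, led by Itga2b at up to 2.01 TPM, summed to 1.99 to 2.44 TPM in Abl.2, 0.75 to 1.07 TPM in Abl.3 and 1.39 to 1.52 TPM in Abl.4. Allelic counts per library ranged from 18362319 to 26881211, whereas TPM keep no depth, and that of the abundance table is unknown.

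Of the 9 markers, 6 were expressed in every line, Flt3 was near 1 TPM, and Kit and Cd34 were not detected beyond a trace. The stem cell factor receptor Kit (chr5:75574916-75656722, GRCm38 here and below) was listed at 0 TPM in all 6 libraries. Cd34 (chr1:194938819-194961279) was at 0.03 TPM in the first library of Abl.2 and at 0 in the other 5. Neither gene had a single allelic count in any library. With 3 counts as the limit that a count of 0 allows, this leaves room for up to 0.112 to 0.163 CPM (counts per 1000000 allelic counts of the library). Flt3 (chr5:147330741-147400489) was at 0.57 and 0.61 TPM in Abl.2, 0.89 and 1.03 TPM in Abl.3, and 0.61 and 0.77 TPM in Abl.4. Abl.3 thus lay above both other lines, whose libraries met at 0.61 TPM. Flt3, Kit and Cd34 had a mean under 1 TPM and did not enter the abundance test.

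The promoters of the 2 undetected or low kinase receptors and of 2 expressed markers are printed because they differ in their content of CpG, the dinucleotide on which DNA methylation acts. DNA methylation is named in the study's title, and no methylation was measured in the data used here. The set of RefSeq promoters used (GRCm38.p6) was matched to 6 of the 9 genes, in 8 records. No record of that set was matched to Cd24a, Cd93 or Bst1. Each line below gives the 250 bases before the start site of the promoter record, 5′ to 3′ on the gene's strand, with CpG in capitals. These start sites can differ from the gene coordinates printed in the text. By those coordinates the Il7r window lies within its gene and the Kit window runs into its gene.
Il7r, chr15:9529877-9530126, minus strand: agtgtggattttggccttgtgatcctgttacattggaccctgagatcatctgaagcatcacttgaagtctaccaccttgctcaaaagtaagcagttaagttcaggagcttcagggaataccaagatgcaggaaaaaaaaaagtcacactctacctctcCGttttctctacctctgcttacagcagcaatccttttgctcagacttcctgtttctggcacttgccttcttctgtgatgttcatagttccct
Spn, chr7:127137824-127138073, minus strand: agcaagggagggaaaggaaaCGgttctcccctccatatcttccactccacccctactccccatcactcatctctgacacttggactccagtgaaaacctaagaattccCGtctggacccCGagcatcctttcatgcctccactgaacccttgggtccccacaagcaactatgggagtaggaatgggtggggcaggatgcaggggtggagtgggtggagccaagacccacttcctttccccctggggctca
Flt3, chr5:147400490-147400739, minus strand: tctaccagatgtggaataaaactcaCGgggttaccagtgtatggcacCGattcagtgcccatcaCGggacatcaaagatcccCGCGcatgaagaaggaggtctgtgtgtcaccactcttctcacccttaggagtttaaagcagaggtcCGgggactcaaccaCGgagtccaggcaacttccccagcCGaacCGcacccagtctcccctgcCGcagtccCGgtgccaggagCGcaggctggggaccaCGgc
Kit, chr5:75574737-75574986, plus strand: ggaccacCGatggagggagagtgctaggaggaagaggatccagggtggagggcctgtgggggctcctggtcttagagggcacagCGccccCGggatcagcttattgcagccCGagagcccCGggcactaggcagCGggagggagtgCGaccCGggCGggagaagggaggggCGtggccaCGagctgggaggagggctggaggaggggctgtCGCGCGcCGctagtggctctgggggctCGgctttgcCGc
The Il7r window holds 1 CpG and the Spn window 3, while the Flt3 window holds 13 and the Kit window 17. Over 32851 promoters of the same length the median was 6, with quartiles of 2 and 16. Cd34, which was not detected beyond a trace either, has 6, and the 2 start sites of Ptprc have 4 and 2. The 3 expressed genes with a promoter entry thus had fewer CpG than the 3 low or undetected ones, which over 6 genes is a description. The EBF1 core CCCNNGGG, searched like the others on both strands, occurs 3 times in the Spn window, with 2 of the matches overlapping, and once in that of Kit. It is found in 11.8% of all promoters. GAGGAAG, a PU.1 motif found in 10.6% of promoters, occurs once in the Kit window. TGTGGT (RUNX, 14.0% of promoters) and CAGGTG (E proteins, 17.2%) occur in none of the windows. A match is a run of letters and not a measured binding site.

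Cd24a (chr10:43578284-43584265), which encodes the heat-stable antigen, was the most abundant of the 9 in every line. In Abl.2, Abl.3 and Abl.4 its mean was 690.5 ± 96.7, 392 ± 33.0 and 913 ± 98.5 TPM (SD, n = 2 here and below), above 95.9 to 98.7% of the 11003 genes tested. Bst1 (chr5:43818885-43843986), a GPI-anchored enzyme of the ADP-ribosyl cyclase family, came next in all 3 lines, at 66.1 ± 6.07, 154 ± 10.8 and 149.5 ± 10.9 TPM in Abl.2, Abl.3 and Abl.4. The tyrosine phosphatase gene Ptprc (chr1:138062861-138175708) was at 43.4 ± 1.07, 34.1 ± 0.856 and 61.3 ± 4.87 TPM. It has 13 annotated transcripts, and a value per gene does not separate the isoform B220 from the others.

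The remaining expressed markers changed places between lines. In Abl.2, Il7r (chr15:9505788-9530176), Cd93 (chr2:148436640-148443563, a C-type lectin-like protein) and Spn (chr7:127132232-127137823, the sialomucin CD43) were at 34.2 ± 3.10, 31.1 ± 1.63 and 31.0 ± 0.177 TPM. The libraries of Il7r and Cd93 overlapped there, and so did those of Cd93 and Spn. In Abl.3 the order was Il7r, Ptprc, Spn and Cd93, with no overlap between neighbours. Cd93 was lowest of the 6 in that line at 9.005 ± 0.191 TPM, above only 31.0% of tested genes. In Abl.4, Cd93 and Il7r overlapped, at 47.0 ± 13.1 and 44.9 ± 5.53 TPM, and Spn was lowest at 20.5 ± 0.205 TPM.

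**Figure D1:**
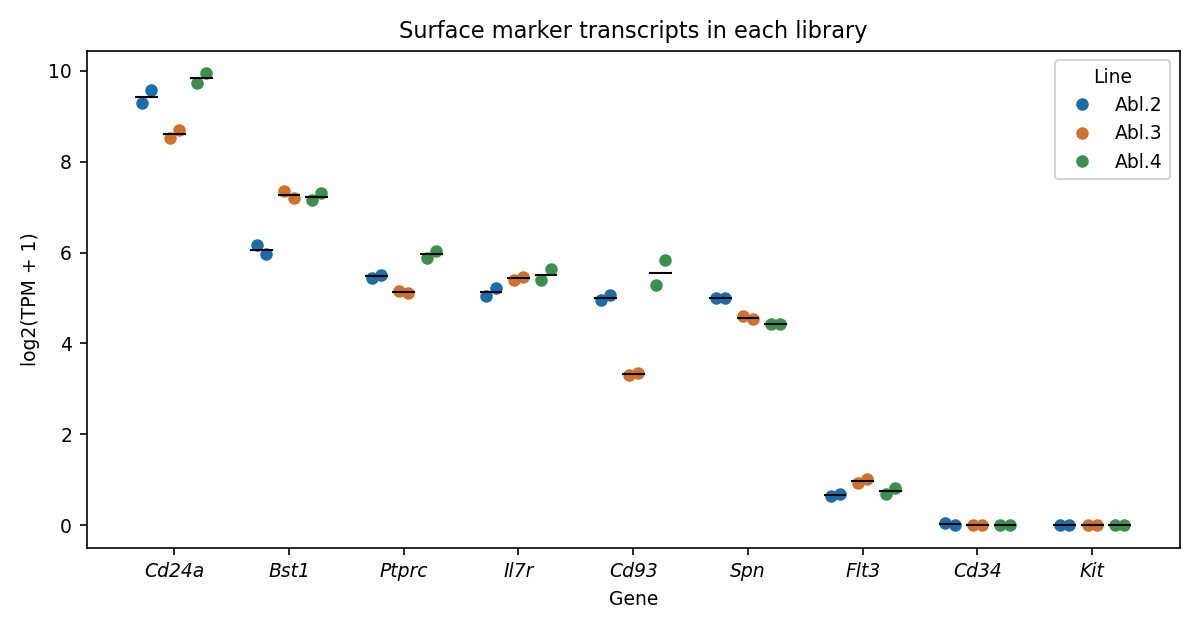
Level of each of the 9 markers, as log2(TPM + 1), in the 6 libraries of Abl.2, Abl.3 and Abl.4. Points are libraries and lines are means of 2. Cd24a is highest in every line, Cd93 is low in Abl.3 and Bst1 in Abl.2, and Cd34 and Kit lie at or next to 0.

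Levels were then compared between lines with limma on log2(TPM + 1), a scale that understates the change of low genes. Adjusted p is the Benjamini-Hochberg value over the 11003 genes whose mean reached 1 TPM, and a difference was called below 0.05. Between Abl.2 and Abl.3, 5 of the 6 markers tested were called, 4 higher in Abl.2 and 1 in Abl.3. Over all genes 39.8% were called, 25.9% higher in Abl.2 and 14.0% higher in Abl.3. Without 1 library, the first or the second of Abl.2 or the second of Abl.3, 3 of the 6 markers were called, and the calls over all 11003 genes fell likewise, from 4382 to 2541, 2466 and 2621. Between Abl.2 and Abl.4, 4 of 6 were called, 1 higher in Abl.2 and 3 in Abl.4, beside 33.5% of all genes, 15.0% and 18.4% by direction. That number fell to 2 without the first library of Abl.2, where the calls over all genes fell from 3682 to 1970. Between Abl.3 and Abl.4, 3 of 6 were called, all higher in Abl.4, beside 38.1% of all genes, 11.3% higher in Abl.3 and 26.8% higher in Abl.4. Each of the 6 was called in at least 1 pair, beside 59.7% of all genes.

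Each pair of lines shares a line with the next, so the 3 comparisons are not independent. The median absolute log2 difference of the 6 markers was 0.62, 0.52 and 0.48 in the order Abl.2 against Abl.3, Abl.2 against Abl.4 and Abl.3 against Abl.4, and that of all tested genes was 0.32, 0.28 and 0.31. The median signed difference of all genes was 0.10, -0.03 and -0.15, and that of the markers 0.39, -0.45 and -0.45. The split of calls by direction rests on the scaling. Of all calls in Abl.2 against Abl.3, a share of 65.0% was higher in Abl.2 in TPM, 51.4% after quantile normalisation and 40.2% with library medians set equal. In Abl.3 against Abl.4, a share of 29.8% was higher in Abl.3 in TPM, 52.0% after quantile normalisation and 64.0% with equal medians. The markers' own split moved too. Under either of these scalings, 2 markers were called higher in Abl.2 (Cd93 and Cd24a) and 2 higher in Abl.3 (Bst1 and Il7r), and in Abl.3 against Abl.4 Spn joined the calls as higher in Abl.3.

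Cd93 had low transcript levels in Abl.3. The libraries were at 30.0 and 32.3 TPM in Abl.2, 8.87 and 9.14 TPM in Abl.3, and 37.7 and 56.2 TPM in Abl.4. No libraries overlapped between lines, and the libraries of Abl.4 lay furthest apart. The mean of Abl.2 was 3.46 times that of Abl.3, a log2 difference of 1.68 ± 0.181 (SE here and below; limma adjusted p = 0.000801). The mean of Abl.4 was 5.21 times that of Abl.3, with a log2 difference of -2.23 for Abl.3 minus Abl.4 (limma adjusted p = 0.000296). Between Abl.2 and Abl.4 the log2 difference of -0.55 was not called (limma adjusted p = 0.0590). It was called with a filter at 5 TPM (0.0485) and with the replicate number as a block (0.0300). It was -0.83 without the first library of Abl.4 (adjusted p = 0.00940) and -0.27 without the second (adjusted p = 0.146). In allelic counts summed over both alleles, Cd93 had a difference of 1.11 for Abl.2 minus Abl.3 and of -0.86 for Abl.2 minus Abl.4 (edgeR quasi-likelihood adjusted p = 0.000132 and 0.000841). The 3 plasma cell markers, among which Prdm1 was highest at up to 15.4 TPM and none was at 0, also summed lowest in Abl.3, to 8.42 to 9.23 TPM, and to 24.9 to 28.1 TPM in Abl.2 and 21.9 to 22.4 TPM in Abl.4. Their part in the Cd93 difference was not tested, and in a bulk sample fewer cells of a type and less RNA per cell cannot be told apart.

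Cd24a was also lowest in Abl.3. The libraries were at 622 and 759 TPM in Abl.2, 368 and 415 TPM in Abl.3, and 844 and 983 TPM in Abl.4. The lines did not overlap. The log2 difference was 0.81 ± 0.128 for Abl.2 minus Abl.3 (limma adjusted p = 0.00363) and -1.22 for Abl.3 minus Abl.4 (limma adjusted p = 0.000846), which are ratios of means of 1.76 and, for Abl.4 over Abl.3, 2.33. Abl.2 minus Abl.4 was -0.41 and was not called (limma adjusted p = 0.0516). With the replicate number as a block it was called (limma adjusted p = 0.00310). It was called after quantile normalisation (-0.47, adjusted p = 0.0287), with a filter at 5 TPM (0.0431) and in summed allelic counts (-0.28, edgeR adjusted p = 0.0486), and it was -0.26 without the first library of Abl.2 (0.268). Reads from copies of Cd24a elsewhere in the genome were not examined.

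Bst1 had another placing, with Abl.2 below both other lines. It was at 70.4 and 61.8 TPM in Abl.2, 162 and 146 TPM in Abl.3, and 142 and 157 TPM in Abl.4. Abl.3 and Abl.4 overlapped, and both libraries of Abl.2 lay under every other library. The means of Abl.3 and Abl.4 were 2.33 and 2.26 times that of Abl.2, log2 differences for Abl.2 minus each of -1.21 ± 0.102 and -1.17 ± 0.102 (limma adjusted p = 0.000300 and 0.000352). Abl.3 minus Abl.4 was 0.04 ± 0.102 (limma adjusted p = 0.772), and 0.29 with equal medians (0.0720) and in summed allelic counts (edgeR adjusted p = 0.0568). Bst1 overlaps Fbxl5, a gene on the other strand at up to 94.96 TPM, by 2.75 kb, and without a stated strand in counting the reads there cannot be told apart.

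Ptprc was highest in Abl.4 and Spn in Abl.2. Ptprc was at 42.7 and 44.2 TPM in Abl.2, 34.7 and 33.5 TPM in Abl.3, and 57.9 and 64.75 TPM in Abl.4. The lines did not overlap, and Abl.4 exceeded Abl.3 by a ratio of 1.80 (log2 difference for Abl.3 minus Abl.4 -0.83 ± 0.090, limma adjusted p = 0.000961). Abl.2 minus Abl.4 was -0.485 (limma adjusted p = 0.00790; 0.0620 without the first library of Abl.2). Abl.2 minus Abl.3 was 0.34 (limma adjusted p = 0.0252), and this call was lost after quantile normalisation (0.19, adjusted p = 0.142), with equal medians (0.16, adjusted p = 0.194) and without any 1 of the 4 libraries compared (adjusted p from 0.0828 to 0.126).

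Spn was at 30.9 and 31.2 TPM in Abl.2, 23.1 and 22.3 TPM in Abl.3, and 20.4 and 20.65 TPM in Abl.4. The lines did not overlap, and the log2 difference was 0.575 ± 0.0869 for Abl.2 minus Abl.4 (limma adjusted p = 0.00348) and 0.435 ± 0.0869 for Abl.2 minus Abl.3 (limma adjusted p = 0.00905). The second of these was not called after quantile normalisation (0.26, adjusted p = 0.0507), with equal medians (0.25, adjusted p = 0.0634), or without the first (0.0588) or second (0.0638) library of Abl.2 or the second of Abl.3 (0.0597). Abl.3 minus Abl.4 was 0.14 (limma adjusted p = 0.244), and was called after quantile normalisation (0.38, adjusted p = 0.0165), with equal medians (0.38, 0.0158) and in summed allelic counts (0.42, edgeR adjusted p = 0.00522). CD43 is also carried by myeloid cells, and the myeloid list was highest in Abl.2, with the sums given above. In the library with the highest sum, of Abl.2, Lyz2 alone gave 193 of 196 TPM. The part of this list in the Spn difference was not tested.

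The interleukin 7 receptor chain varied least of the markers tested for abundance. Il7r was at 32.05 and 36.4 TPM in Abl.2, 41.1 and 43.4 TPM in Abl.3, and 41.0 and 48.8 TPM in Abl.4. Abl.2 lay below both other lines, which overlapped. In TPM, Abl.2 minus Abl.4 alone was called (log2 difference -0.38 ± 0.117, limma adjusted p = 0.0483), and that call was lost without any 1 library other than the first of Abl.4 (adjusted p from 0.0860 to 0.237). It was also lost after quantile normalisation (adjusted p = 0.0653), with equal medians (0.0650), with no filter on low genes (0.0833), without the variance trend (0.0698) and in summed allelic counts (-0.24, edgeR adjusted p = 0.117). Abl.2 minus Abl.3 was -0.30 (limma adjusted p = 0.0876) and passed the threshold after quantile normalisation (-0.42, adjusted p = 0.0344), with equal medians (-0.48, 0.0143) and in summed allelic counts (-0.39, edgeR adjusted p = 0.0160). It also passed with the replicate number as a block (limma adjusted p = 0.0242).

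**Figure D2:**
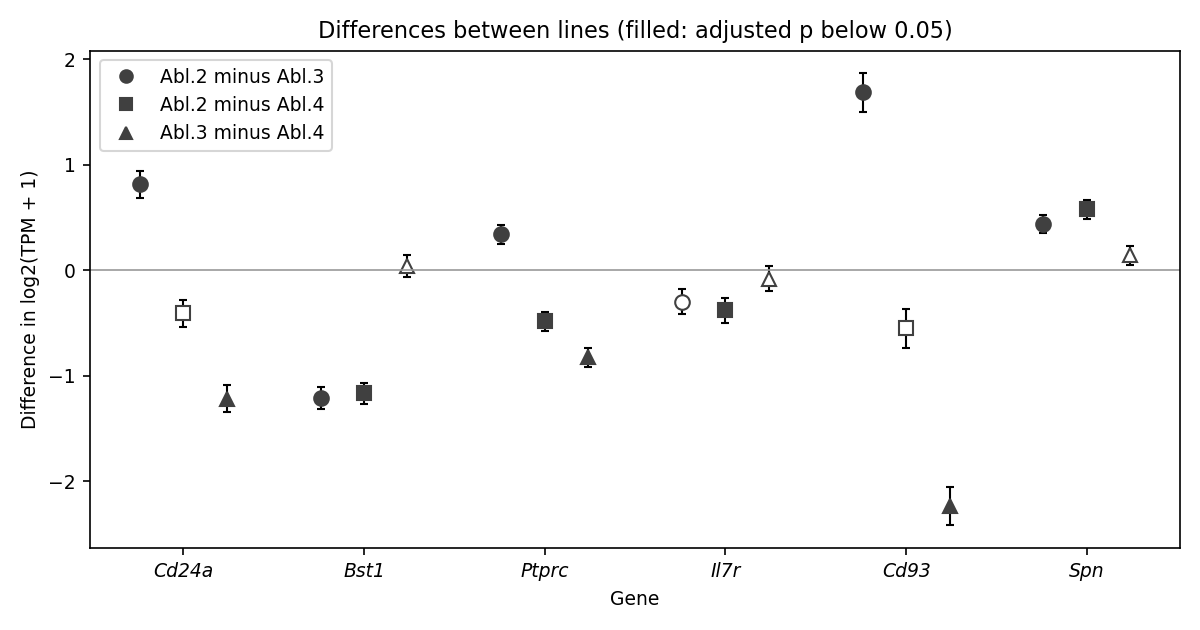
Difference in log2(TPM + 1) between each pair of lines for the 6 markers tested. Bars are 1 SE from limma, and filled symbols have an adjusted p below 0.05. Cd93 and Cd24a are low in Abl.3, and Bst1 is low in Abl.2 by about the same amount against both other lines.

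The ligands, partner chains and signal proteins of these receptors were read from a list of 21 genes. Of these, 17 were tested, and 10 (7 higher in Abl.2), 9 (3 higher in Abl.2) and 10 (2 higher in Abl.3) were called in the same 3 pairs, beside 39.8%, 33.5% and 38.1% of all genes. By direction, 25.9%, 15.0% and 11.3% of all genes were higher in the first line of the pair, here and for the lists that follow. The splits of the lists were counted in TPM alone, and the other scalings were not applied to them. The median log2 difference of the tested genes was 0.15, -0.11 and -0.34, beside the medians of all genes above. Siglecg, an inhibitory lectin of B cells, was at 33.6 ± 1.24, 103 ± 10.2 and 112 ± 3.46 TPM in Abl.2, Abl.3 and Abl.4, low in Abl.2 as Bst1 was (log2 difference of Abl.2 to Abl.3 -1.59, limma adjusted p = 6.58e-05). Jak1, the kinase bound to the Il7r chain, was at 235.5 ± 2.15, 125 ± 0.354 and 270.4 ± 14.5 TPM, low in Abl.3 (Abl.3 minus Abl.4 -1.10, limma adjusted p = 0.000118). Fyn, a Src-family kinase whose inhibitory site CD45 can dephosphorylate, was at 177 ± 5.59, 180.0 ± 9.31 and 93.1 ± 5.37 TPM, low in Abl.4 (Abl.3 minus Abl.4 0.94, limma adjusted p = 0.000376). Of the ligands, Kitl and Tslp did not exceed 0.09 TPM in any library, and Il7 stood at 0.79 to 1.12 TPM.

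Some other stage markers had larger differences than any of the 6 markers tested. Of 11 pro-B and pre-B surface genes 10 were tested, and 6 (4 higher in Abl.2), 5 (2 higher in Abl.2) and 6 (2 higher in Abl.3) were called, beside 39.8%, 33.5% and 38.1% of all genes, with median log2 differences of 0.13, 0.05 and -0.25. Cd2, an adhesion receptor gained in late pre-B cells, was at 1.19 ± 0.113, 6.83 ± 0.891 and 290 ± 1.99 TPM in Abl.2, Abl.3 and Abl.4. Its log2 difference between Abl.2 and Abl.4 was -7.05 ± 0.118 (limma adjusted p = 8.91e-07). Enpep, the aminopeptidase BP-1 of early pre-B cells, was at 48.0 ± 0.551, 147 ± 0.523 and 201 ± 6.82 TPM, lowest in Abl.2 (Abl.2 minus Abl.4 -2.04, limma adjusted p = 9.49e-06). Il2ra, the CD25 chain of pre-B cells, was highest in Abl.2, at 4.80 ± 0.792 TPM against 0.970 ± 0.226 and 0.680 ± 0.0141 TPM (log2 difference of Abl.2 minus Abl.4 1.78). Il2ra reached the filter of 1 TPM through Abl.2 alone, so its difference is a description. The counts and medians of this list include it.

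Of 8 further progenitor surface genes 4 were tested, and 4 (1 higher in Abl.2), 3 (1 higher in Abl.2) and 4 (3 higher in Abl.3) were called, beside 39.8%, 33.5% and 38.1% of all genes, with medians of -1.20, -2.19 and 1.03. Cd48, an adhesion protein of the SLAM family, was at 0.560 ± 0.255, 124 ± 3.83 and 49.6 ± 5.97 TPM in Abl.2, Abl.3 and Abl.4, a log2 difference of -6.33 between Abl.2 and Abl.3 (limma adjusted p = 2.12e-06). The hyaluronan receptor gene Cd44 was at 0.145 ± 0.0495, 0.935 ± 0.106 and 20.4 ± 1.53 TPM, with most of its transcripts in Abl.4 (log2 difference of Abl.2 minus Abl.4 -4.22). Cd44 reached the filter of 1 TPM through Abl.4 alone, so its difference is a description. The counts and medians of this list include it. Ly6a, the antigen Sca-1, was highest in Abl.2 at 7.81 ± 1.27 TPM, against 2.82 ± 0.255 and 1.27 ± 0.290 TPM (Abl.2 minus Abl.4 1.95, limma adjusted p = 0.000440). Procr and Thy1 were listed at 0 in every library, as Kit was.

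Of 10 genes of later B-cell surfaces 7 were tested, and 5 (1 higher in Abl.2), 5 (1 higher in Abl.2) and 7 (3 higher in Abl.3) were called, beside 39.8%, 33.5% and 38.1% of all genes, with medians of -0.38, -1.38 and -0.91. Ms4a1, which encodes CD20, was at 6.14 ± 0.0707 TPM in Abl.3 and under 0.4 TPM in each library of the other lines (log2 difference of Abl.2 minus Abl.3 -2.63). Ms4a1 reached the filter of 1 TPM through Abl.3 alone, so its difference is a description. The counts and medians of this list include it. Cd22, an inhibitory lectin, was at 92.4 ± 10.8 TPM in Abl.4 against 22.3 ± 1.39 and 19.4 ± 1.65 TPM (Abl.3 minus Abl.4 -2.19, limma adjusted p = 5.84e-05).

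Of 10 transcription factors of early B development 7 were tested. In the same pairs 6 (all higher in Abl.2), 3 (all higher in Abl.2) and 4 (all higher in Abl.4) were called. Of all genes 39.8%, 33.5% and 38.1% were called, and 25.9%, 15.0% and 26.8% in those directions. The medians of the list were 0.64, 0.31 and -0.33. This split was counted in TPM, and whether it holds under the other scalings was not tested. Pax5, which commits cells to the B lineage, was at 226 ± 27.9, 60.1 ± 5.49 and 161 ± 6.72 TPM, low in Abl.3 as Cd93 and Cd24a were (Abl.2 minus Abl.3 1.89, limma adjusted p = 6.52e-05). Ikzf1, which encodes Ikaros, was at 110.0 ± 3.05, 67.0 ± 8.28 and 132 ± 5.87 TPM (Abl.3 minus Abl.4 -0.98, limma adjusted p = 0.000802). Tcf3, which encodes the E proteins E12 and E47, was at 912 ± 80.2, 528 ± 36.6 and 563 ± 59.0 TPM, higher in Abl.2 (Abl.2 minus Abl.3 0.79, limma adjusted p = 0.00211). Hoxa9 and Meis1, progenitor factors, were listed at 0 in all libraries.

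For the 3 markers whose line means spanned at least 1 on the log2 scale, the genes with the most similar pattern were sought among 7670 genes whose mean reached 10 TPM. Likeness was the Euclidean distance over the 6 libraries of log2(TPM + 1) centred per gene. Cd24a was nearest to Tspan13 (distance 0.169), which stood at 209, 119 and 302 TPM in Abl.2, Abl.3 and Abl.4, and then to Fnbp4 (0.209). Cd93 was nearest to Snapc5 (0.383) and Rgs1 (0.421), which was at 98.1, 38.1 and 151 TPM. Bst1 was nearest to Tpm3-rs7 (0.221) and Unc13d (0.256).

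The allelic counts give the share of each marker's transcripts that came from the maternal allele. They count reads at SNP positions, so equal expression gives equal counts where reads of both alleles are mapped equally well. Of the 9 markers, 7 had at least 20 counts in each of the 6 libraries, and Kit and Cd34 had none. The tested markers had 1479 to 29961 counts per library except Flt3, with 56 to 137. Unequal alleles were tested with the edgeR quasi-likelihood test over 8702 genes. In Abl.2, 6 of 7 markers were called, 3 maternal and 3 paternal, beside 49.1% of all genes. In Abl.3, 5 of 7 were called, 3 maternal and 2 paternal, beside 45.1%, and this became 4 without the first library of Abl.3, with 2739 of 8748 genes called in place of 3926 of 8702. In Abl.4, 6 of 7 were called, 5 maternal and 1 paternal, beside 39.9%. Of all genes called, 2148 were maternal and 2124 paternal in Abl.2, 1955 and 1971 in Abl.3, and 1674 and 1798 in Abl.4. Ptprc, Il7r, Cd24a, Cd93 and Bst1 were called in all 3 lines, 5 of 7, beside 25.8%. The 95% intervals given for single libraries are Wilson intervals, which hold counting error alone, since the reads carry no molecular identifiers.

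Bst1 was expressed mainly from the paternal allele in all 3 lines. Its maternal share was 0.115 and 0.120 in Abl.2, 0.201 and 0.217 in Abl.3, and 0.170 and 0.128 in Abl.4, where the 95% intervals were 0.156 to 0.185 and 0.117 to 0.140. No library of Abl.3 overlapped those of the other lines. The paternal allele exceeded the maternal by ratios of 7.49, 3.80 and 5.76 in the 3 lines (edgeR adjusted p = 6.59e-09, 1.66e-07 and 2.97e-08). The median share of the 599 tested genes of chromosome 5 was 0.490, 0.451 and 0.502, and only 2.17 to 4.17% of them had a lower share than Bst1.

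Il7r had a maternal excess in every line. Its maternal share was 0.629 and 0.636 in Abl.2, 0.657 and 0.656 in Abl.3, and 0.669 and 0.718 in Abl.4. All libraries of Abl.4 lay above those of the other lines. The log2 ratio of maternal to paternal counts was 0.78 ± 0.0700, 0.94 ± 0.0702 and 1.18 ± 0.0710 (edgeR adjusted p = 3.84e-06, 1.85e-06 and 3.37e-07). The median share of chromosome 15 was 0.497 to 0.4998.

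Ptprc had a maternal excess in each line, and Spn in Abl.4. The share of Ptprc was 0.559 and 0.543 in Abl.2, 0.559 and 0.555 in Abl.3, and 0.585 and 0.596 in Abl.4, and all libraries lay on the maternal side (log2 ratios 0.30, 0.33 and 0.53, edgeR adjusted p = 5.78e-05, 4.95e-05 and 1.11e-06). The median of chromosome 1 in Abl.3 was 0.449, against 0.501 and 0.504 in the other lines. Spn had a share of 0.503 and 0.550 in Abl.2, 0.533 and 0.521 in Abl.3, and 0.570 and 0.567 in Abl.4. Its alleles were called unequal in Abl.4 (log2 ratio 0.40, edgeR adjusted p = 0.00327) and not in Abl.2 or Abl.3 (adjusted p = 0.130 and 0.148).

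Cd24a and Cd93 had a different allele in excess depending on the line, and Flt3 had a called excess in Abl.2 only. The maternal share of Cd24a was 0.275 and 0.277 in Abl.2, 0.534 and 0.542 in Abl.3, and 0.563 and 0.555 in Abl.4. Abl.2 stood apart, with a log2 ratio of -1.39 ± 0.0311 against 0.22 and 0.34 in the other lines (edgeR adjusted p = 3.29e-11, 0.000218 and 7.74e-06). Chromosome 10 as a whole had a median share of 0.337 in Abl.2, against 0.503 and 0.504 in Abl.3 and Abl.4, over 431 genes. In Abl.2, 15.3% of those genes had a lower share than Cd24a, and the part of the chromosome's shift in the Cd24a share was not tested.

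Cd93 had a maternal share of 0.704 and 0.702 in Abl.2, 0.449 and 0.473 in Abl.3, and 0.578 and 0.586 in Abl.4. The 3 lines did not overlap, and the median of chromosome 2 was 0.499 to 0.502. In the order Abl.2, Abl.3 and Abl.4 the log2 ratio was 1.24, -0.23 and 0.48 (edgeR adjusted p = 7.49e-09, 0.00904 and 3.16e-05). The value of Abl.3 was -0.16 and no longer called without its first library (adjusted p = 0.152). For Flt3 the share was 0.217 and 0.214 in Abl.2, 0.451 and 0.409 in Abl.3, and 0.536 and 0.643 in Abl.4. Only Abl.2 was called (log2 ratio -1.86 ± 0.351, edgeR adjusted p = 0.00119), and at 56 to 137 counts the 95% intervals of single libraries were as wide as 0.407 to 0.660. Flt3 overlaps Gm26597, annotated as antisense, by 0.936 kb.

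**Figure D3:**
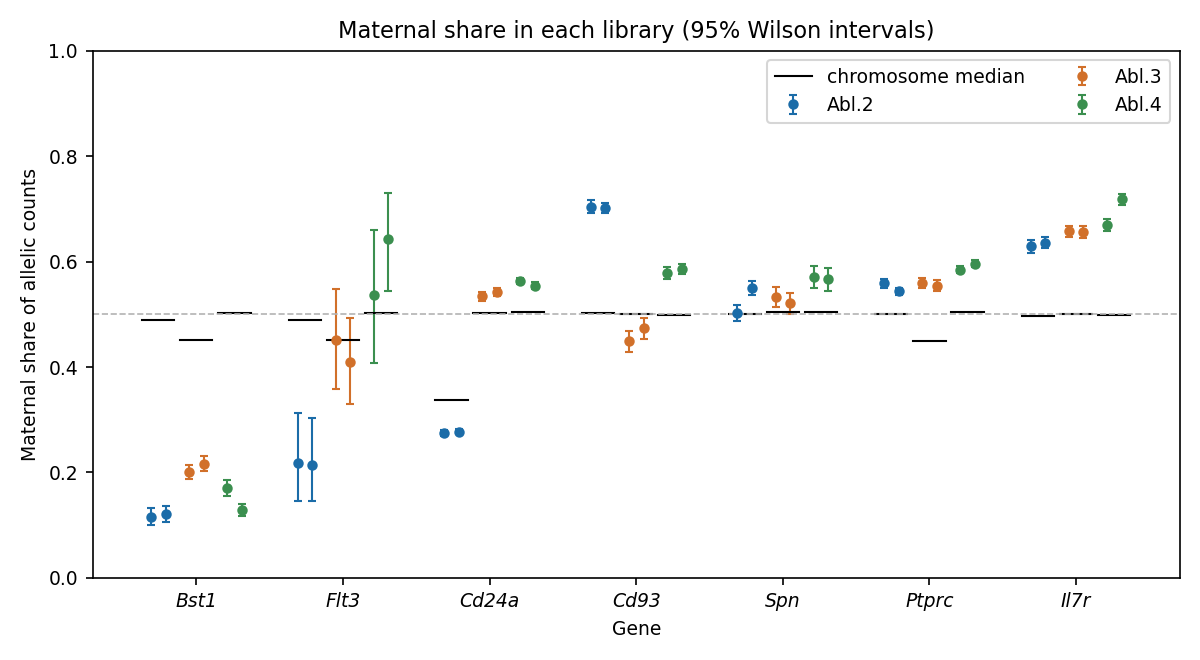
Maternal share of the allelic counts of 7 markers in each library, with 95% Wilson intervals. Black lines are the median share of the tested genes of the same chromosome in that line. Bst1 is below the chromosome in all lines and Il7r above it, while Cd24a, Cd93 and Flt3 differ between lines.

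The authors' deposited table of allelic imbalance gives fractions averaged over the replicates. Its intervals, whose confidence level is not given in the sources used here, leave out equality for 5, 4 and 5 of the 7 markers in Abl.2, Abl.3 and Abl.4. The share of all genes whose intervals leave out equality was not counted, so these numbers are a description. The deposited fraction of Bst1 was 0.12 in Abl.2 with limits of 0.08 and 0.17. For Flt3 in Abl.2 the authors' deposited table gives 0.22 with limits of 0.03 and 0.5, so that gene, called unequal by edgeR here, is not set apart from equality there. The same holds for Cd93 in Abl.3 (limits of 0.4 and 0.53) and Spn in Abl.4 (0.49 and 0.65) in the authors' deposited table.

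Allele ratios were then compared between lines in the same edgeR fit. Between Abl.2 and Abl.3, 4 of 7 markers were called, beside 28.4% of all genes, and 3 without any 1 of the 4 libraries compared, where 2063 to 2149 genes were called in place of 2475. Between Abl.2 and Abl.4 it was 5 of 7, beside 22.3%, and 7 of 7 when the null was set at each library's allele totals, with 2277 genes called in place of 1942. Between Abl.3 and Abl.4 it was 3 of 7, beside 16.5%, and only 1 without either library of Abl.3 or without the second of Abl.4, where 1039, 1043 and 1290 genes were called in place of 1432. The ratio of Cd24a had a log2 difference of -1.61 ± 0.0439 for Abl.2 minus Abl.3 and of -1.73 ± 0.0435 for Abl.2 minus Abl.4 (edgeR adjusted p = 2.10e-10 and 1.49e-10). Cd93 was the 1 marker called in all 3 pairs, with differences of 1.47 ± 0.0784, 0.76 ± 0.0736 and -0.70 ± 0.0772 (edgeR adjusted p = 6.56e-08, 1.34e-05 and 7.74e-05).

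The differences of the other markers were smaller or rested on fewer counts. Bst1 differed by -0.98 ± 0.162 between Abl.2 and Abl.3 (edgeR adjusted p = 0.000762) and by 0.60 ± 0.152 between Abl.3 and Abl.4 (adjusted p = 0.0214). The second call was lost without the first (0.0728) or second (0.138) library of Abl.3 or the second of Abl.4 (0.36, adjusted p = 0.134), and without that last library Bst1 also differed between Abl.2 and Abl.4 (-0.62, adjusted p = 0.0125). Ptprc differed by -0.23 between Abl.2 and Abl.4 (edgeR adjusted p = 0.00714; 0.0859 without the second library of Abl.2) and by -0.20 between Abl.3 and Abl.4 (0.0274; 0.0986 and 0.138 without the first or second library of Abl.3, and 0.125 without the second of Abl.4).

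Il7r differed by -0.40 between Abl.2 and Abl.4 (edgeR adjusted p = 0.0133), but by -0.38 (0.0688) without the first library of Abl.2 and by -0.23 (0.0693) without the second of Abl.4. Without the first library of Abl.4, Il7r also differed between Abl.3 and Abl.4 (-0.42, adjusted p = 0.00380). Flt3 differed by -2.41 ± 0.496 between Abl.2 and Abl.4 (edgeR adjusted p = 0.00410). Its difference of -1.445 ± 0.477 between Abl.2 and Abl.3 was at the threshold (0.0460) and was lost with DESeq2 (0.165), with a minimum of 10 counts (0.0546) and without any 1 of the 4 libraries compared (0.108 to 0.187). Spn was called in no pair (edgeR adjusted p from 0.199 to 0.9998). With the null at each library's allele totals, Spn (-0.38, adjusted p = 0.0337) and Bst1 (-0.51, 0.0447) were called between Abl.2 and Abl.4, and Cd24a (-0.15, 0.0392) between Abl.3 and Abl.4.

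The CPM of each allele show which allele carried a difference in level. These levels were tested for each allele apart with the edgeR quasi-likelihood test, added after the data had been seen. The maternal allele of Cd93 stood at 186 ± 16.8 in Abl.2 and 56.3 ± 2.22 in Abl.3, a log2 difference of 1.72 ± 0.154 (edgeR adjusted p = 1.78e-06, called for 39.5% of all genes). Its paternal allele stood at 78.7 ± 7.75 and 65.8 ± 1.91, a log2 difference of 0.25 ± 0.147 (edgeR adjusted p = 0.187, with 43.4% of genes called). The difference between the alleles is the allelic difference tested above. Both alleles of Cd93 were higher in Abl.4, at 280.2 ± 79.3 and 201 ± 52.3, than in Abl.3 (log2 differences of -2.30 and -1.60 for Abl.3 minus Abl.4, edgeR adjusted p = 1.59e-07 and 1.90e-06; 33.0% and 32.9% of genes called).

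For Cd24a the alleles moved in opposite directions between Abl.2 and Abl.3. The maternal allele was lower in Abl.2, at 313 ± 5.65 against 409 ± 57.0 (log2 difference -0.39, edgeR adjusted p = 0.0113), and the paternal allele higher, at 820.1 ± 20.6 against 350.2 ± 41.6 (1.22, adjusted p = 3.09e-07). Against Abl.4, at 771 ± 36.6 maternal and 608 ± 13.6 paternal, the maternal allele of Abl.2 was lower by a log2 difference of -1.30 (edgeR adjusted p = 1.46e-06, 33.5% of genes called) and its paternal allele higher by 0.43 (0.00452, 37.2% called). The median maternal share of chromosome 10 was 0.337 in Abl.2, against 0.503 and 0.504 in Abl.3 and Abl.4. Its part in the Cd24a allele levels was not tested. Both alleles of Bst1 were lowest in Abl.2, at 8.12 ± 0.886 maternal and 60.8 ± 4.47 paternal. In Abl.3 they were at 35.4 ± 0.0203 and 135 ± 9.01, and in Abl.4 at 20.6 ± 1.34 and 120 ± 20.4. The log2 difference between Abl.2 and Abl.3 was -2.13 ± 0.160 for the maternal and -1.15 ± 0.124 for the paternal allele (edgeR adjusted p = 3.44e-07 and 3.63e-06).

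Ptprc was higher in Abl.4 than in Abl.3 on both alleles. In Abl.4 it stood at 649 ± 98.8 maternal and 449 ± 54.0 paternal, against 305 ± 21.2 and 242 ± 13.9 in Abl.3 (log2 differences of -1.08 and -0.88 for Abl.3 minus Abl.4, edgeR adjusted p = 5.87e-06 and 1.77e-05). Spn likewise was higher in Abl.2 than in Abl.4 on the maternal (0.72, edgeR adjusted p = 0.000251) and paternal allele (0.96, adjusted p = 1.68e-05). Il7r was lower in Abl.2 than in Abl.4 on the maternal allele (-0.37, edgeR adjusted p = 0.0365), while the paternal difference was 0.03 ± 0.115 (adjusted p = 0.868). The sum of its 2 alleles was not called in this pair (-0.24, edgeR adjusted p = 0.117). Flt3 remained under 5 CPM for either allele in every library.

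**Figure D4:**
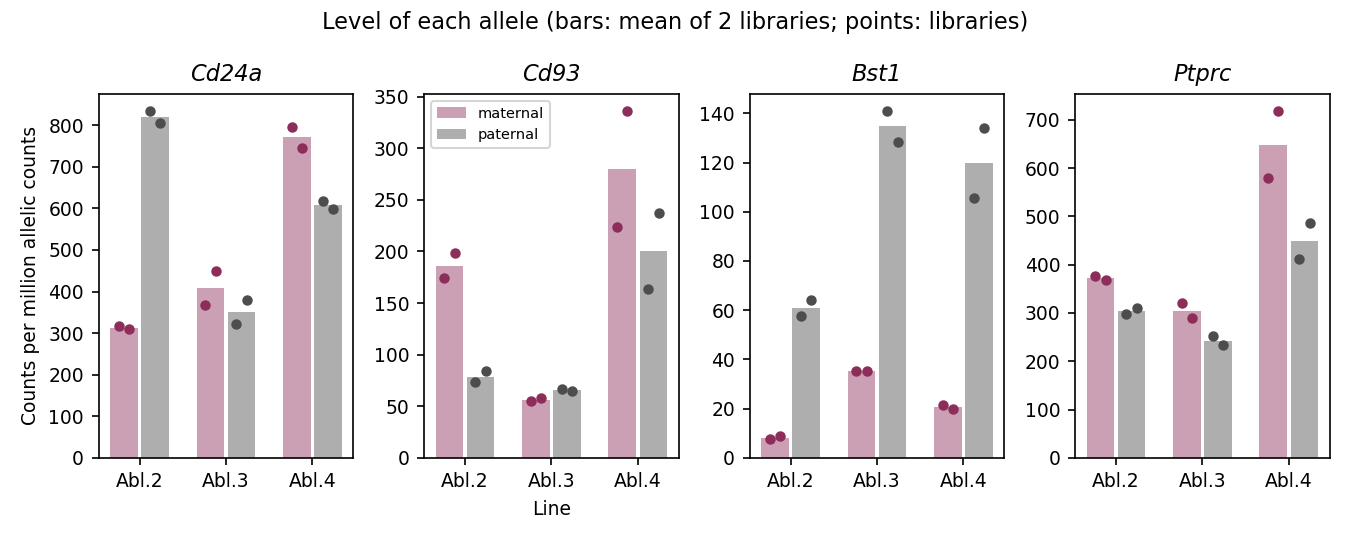
Level of the maternal and paternal allele of Cd24a, Cd93, Bst1 and Ptprc in CPM of allelic counts. Bars are means of 2 libraries and points are libraries. The paternal allele of Cd24a is above the maternal in Abl.2 only, the maternal allele of Cd93 is lower in Abl.3 than in Abl.2 while the paternal levels are 78.7 and 65.8, and the maternal allele of Bst1 is below the paternal in all 3 lines.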

How the data were processed

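The authors deposited TPM per gene and library, obtained with DESeq2 per the file headers. They also deposited whole-number counts of the maternal and paternal allele at SNP positions within each gene, and for each line a maternal fraction with confidence limits, after averaging replicates, per the file headers. Per the submitters' processing notes, STAR 2.5.4a, SAMtools, GATK and the builds GRCm38, mm10 and GRCh37 were used, with no roles given. Counting strand, annotation and SNP list are not given in the sources used here, nor whether a read over several SNPs counts once, which would make counting intervals too narrow. Start and end of all 9 genes equal those of GENCODE M21.

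Abundance was tested with limma 3.58.1 in R 4.3.3 (lmFit, and eBayes with a trend) on log2(TPM + 1), a pseudocount of 1, for the 11003 genes whose mean reached 1 TPM. The deposited allelic counts were tested with edgeR 4.0.16 (glmQLFit, glmQLFTest; an intercept per library, an allele effect per line, equal library size for both alleles), for 8702 autosomal and X genes with at least 20 counts in all 6 libraries. SEs of edgeR values were derived from the F statistic. Scripts were tested on simulated data. Within each line the counts of the 2 libraries differed beyond sampling noise (chi-square per degree of freedom 12.5 to 21.8), so both were kept. Named genes of each list are the 3 with the largest called difference, of which 1 is not reported here. The 9 members and all lists were chosen with earlier results of these data known. Alternatives were other pseudocounts, filters, scalings, coverage minimums, DESeq2 1.42.0, a replicate term and each library left out.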

Additional observations from a re-analysis of the deposited data

Results flagged for a closer look

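In 12 cases the test of the difference itself found that a marker's log2 ratio of maternal to paternal counts differed between a pair of lines (edgeR quasi-likelihood, Benjamini-Hochberg over 8702 genes). Between Abl.2 and Abl.3 the differences were -1.61 for Cd24a, 1.47 for Cd93, -1.445 for Flt3 and -0.98 for Bst1. Between Abl.2 and Abl.4 they were -1.73 for Cd24a, -2.41 for Flt3, 0.76 for Cd93, -0.40 for Il7r and -0.23 for Ptprc. Between Abl.3 and Abl.4 they were -0.70 for Cd93, 0.60 for Bst1 and -0.20 for Ptprc. The pairs share lines, so these are not 12 separate findings. Of all genes, 28.4%, 22.3% and 16.5% were called in the same 3 pairs, in the order given. The median share of chromosome 10 in Abl.2 (0.337) lies beside the Cd24a values, and the allelic counts of Flt3 (56 to 137 per library) beside its own.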

How the results depend on the processing

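Of 270 abundance results under alternatives, 227 kept their direction and side of the threshold, 22 lost a call, 15 gained one and 6 changed sign; of 504 allelic results it was 479, 17, 5 and 3. No sign change concerned a called value. The Il7r difference between Abl.3 and Abl.4 became 0.077 after quantile normalisation, 0.16 with equal medians, 0.15 in summed allelic counts and, with each library left out, -0.20 to 0.042, the last without the second library of Abl.4. With each library left out, the Bst1 difference between the same lines ran from -0.032 without the first library of Abl.4 to 0.12, and was -0.029 without the first of Abl.3. It was 0.29 with equal medians and in summed allelic counts. With each library left out, the allelic difference between Abl.2 and Abl.3 ran from -0.077 to 0.011 for Ptprc, the last without the second library of Abl.2. It was -0.14 with the null at allele totals. For Spn the same omissions gave -0.14 to 0.13, the last without the first of Abl.2, and 0.035 without the first of Abl.3. With each library left out in turn, the markers called for abundance numbered 3 to 5, 2 to 5 and 3 to 3 in the pairs Abl.2 with Abl.3, Abl.2 with Abl.4 and Abl.3 with Abl.4. Those with an allelic difference numbered 3 to 4, 4 to 5 and 1 to 4, and those with unequal alleles 6 to 6, 4 to 5 and 6 to 6 in Abl.2, Abl.3 and Abl.4. A line left with 1 library is assumed to vary like the others. Over all genes, fewer were called in every comparison that had lost 1 of its own libraries. A number of markers that held there, such as 6 to 6, is a description. Where calls were lost or gained, the cause was not tested.

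The replicate numbers are shared across lines, but the labels tie no libraries to a common batch. With 2 numbers the deviations of same-numbered libraries correlated at 0.104, 0.187 and 0.161 in log2 TPM and at -0.00622, -0.056 and 0.0151 in maternal share. With the replicate block the markers called for abundance were 6, 6 and 3, and over all genes the calls were 5213, 4608 and 5184 against 4382, 3682 and 4194. Under the block Il7r was called between Abl.2 and Abl.3 (adjusted p = 0.0242), and Cd24a (0.00310) and Cd93 (0.0300) between Abl.2 and Abl.4. Markers with an allelic difference were 3, 5 and 3, Flt3 between Abl.2 and Abl.3 being lost (edgeR adjusted p = 0.0731). Over all 8702 genes 2404, 1894 and 1343 had such a difference, against 2475, 1942 and 1432 without the block. Markers with unequal alleles were 6, 5 and 6. Over all genes it was 4208, 3826 and 3364, against 4272, 3926 and 3472. TPM give no depth, and allelic counts of 56 to 137 limit Flt3.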

Other observations

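Some markers had a share apart from those of the genes within 1 Mb, and others did not. Spn lay within the range of its 57 neighbours in each line, 38, 39 and 46 of which had a lower share in Abl.2, Abl.3 and Abl.4. Ptprc lay above 1, 2 and 3 of its 3 neighbours in Abl.2, Abl.3 and Abl.4, and its 0.590 in Abl.4 was above their range of 0.442 to 0.549. Thbd, which encodes the anticoagulant receptor thrombomodulin, lies 33.8 kb from Cd93, and its maternal share in Abl.2, Abl.3 and Abl.4 was 0.00917 ± 0.00427, 0.376 ± 0.0240 and 0.455 ± 0.0100 (SD, n = 2). No library had fewer than 1302 counts of it. In Abl.2 the transcripts of Thbd were thus nearly all paternal where those of Cd93 were 0.703 maternal. Cd38, the other ADP-ribosyl cyclase gene and 59.0 kb from Bst1, had shares of 0.344 ± 0.0282, 0.281 ± 0.00781 and 0.457 ± 0.0413. Bst1 lay below all 3 tested genes within 1 Mb in every line. Il7r lay above all 7 of its neighbours in every line, whose medians were 0.465, 0.478 and 0.528. In Abl.2, Flt3 lay below all 10 of its neighbours, which ranged from 0.437 to 0.564, and Cd24a below all 11 of its own, which ranged from 0.308 to 0.689. These neighbours were looked at after the shares had been seen, and their order is a description.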
